A study of Mus musculus with 13 samples.

Results

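The genes described here encode the proteasome, its activators, its inhibitor and its assembly chaperones. They were chosen as the protein-coding rows of the liver table whose symbol begins with Psm, followed by a letter from a to g and a digit. The pattern matched 48 of the 11396 protein-coding rows, and the table lists 11779 rows in all. Of the 48 genes, 46 encode proteasome subunits or the factors that activate, inhibit or assemble them. Psmc3ip, a partner protein of meiotic recombination, and Psme3ip1, which encodes a protein that binds Psme3, matched by symbol only and were kept out of the summaries.

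The proteasome is the protease that degrades proteins marked with ubiquitin. Its barrel-shaped core particle is built of outer alpha rings and inner beta rings, and the cutting sites lie on the catalytic beta subunits Psmb5, Psmb6 and Psmb7. The regulatory particle caps the core, recognises ubiquitin and unfolds the substrate with its ring of ATPases. In cells exposed to interferon-gamma the catalytic subunits can be exchanged for Psmb8, Psmb9 and Psmb10, which form the immunoproteasome and favour peptides that fit MHC class I. The liver carries both hepatocytes and immune cells, and the inducible subunits are known to be abundant in the latter.

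The series addressed the long noncoding RNA LL35, also named Falcor, in mouse hepatocytes. RNA was sequenced from livers of Balb/c mice on day 5 after tail vein injection of antisense oligonucleotides (ASOs) carrying GalNAc, a sugar taken up by hepatocytes. A mix of ASOs against LL35 was given to 3 mice and an ASO against firefly luciferase (Luc), which mice do not have, to 3 control mice. The paper's text puts 5 ASOs in the mix, whereas its supplementary list of ASOs for mice names 4. The labels put the dose at 150 mg/kg for each LL35 ASO, whereas the methods state it for the mix as a whole. Every liver thus came from a mouse given an ASO, and untreated livers were not analysed here. The 3 Luc and 4 LL35 samples of AML12, a line of normal mouse hepatocytes, collected on day 2 with each LL35 ASO at 20 nM, were not analysed here either.

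The liver table holds no column for a single mouse. Its value for each gene is the authors' mean normalized count over the liver libraries they compared, Luc and LL35 together, so no error, depth or replicate number stands behind any value, and the table does not name the libraries averaged. The remaining columns are results of the authors' own comparison and were not used, so whether a proteasome gene differed between LL35 and Luc livers was not examined. What follows compares genes with each other. It describes these libraries, without a test.

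The labelled tissue was checked against markers. All 8 hepatocyte markers were listed, each above the protein-coding median, with Alb, which encodes albumin, at 519843 mean normalized counts per kilobase. All 6 macrophage, 4 endothelial and 4 stellate cell markers were listed too, and 1 of 7 lymphocyte markers, Cd3e, at 4.56 per kilobase. The macrophage markers ran from 59.9 per kilobase for Adgre1 to 791 for Clec4f, a marker of Kupffer cells, with a median of 135. The part of each cell type in the levels of the proteasome genes was not tested.

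The 6 catalytic subunits form 3 pairs, in which the inducible subunit takes the place of the constitutive one. In each of them the protein is made with a leader that is cut off, leaving the catalytic threonine as the first residue. The lines below give 60 coding bases that begin at the codon of that threonine, shown in capitals, in the order constitutive, inducible within each pair. They are shown because the pairs are related genes whose reads must be told apart for their levels to be compared.
Psmb5: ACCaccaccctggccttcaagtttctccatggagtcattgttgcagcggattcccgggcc
Psmb8: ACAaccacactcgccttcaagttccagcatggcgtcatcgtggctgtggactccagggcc
Psmb6: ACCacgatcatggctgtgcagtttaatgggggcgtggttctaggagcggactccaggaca
Psmb9: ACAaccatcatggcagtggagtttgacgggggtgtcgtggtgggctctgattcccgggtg
Psmb7: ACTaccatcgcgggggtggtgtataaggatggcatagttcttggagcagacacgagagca
Psmb10: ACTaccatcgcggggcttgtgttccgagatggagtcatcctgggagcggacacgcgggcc

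The stretches were read from the principal transcripts of GENCODE release M21 on mouse build GRCm38 and are written 5′ to 3′ on the coding strand. Psmb5 (ENSMUSG00000022193) lies on the minus strand, and its stretch runs over the junction of exons 1 and 2 of 3 within chr14:54616783-54617814. The stretch of Psmb8 (ENSMUSG00000024338) lies in exon 2 of 6 on the plus strand, at chr17:34199302-34199361. That of Psmb6 (ENSMUSG00000018286) lies in exon 2 of 6 on the plus strand, at chr11:70525885-70525944. Psmb9 (ENSMUSG00000096727) is read from the minus strand, with its stretch in exon 2 of 6 at chr17:34185738-34185797. The stretches of Psmb7 (ENSMUSG00000026750) and Psmb10 (ENSMUSG00000031897) each run over the junction of exons 2 and 3 of 8 on the minus strand, within chr2:38642243-38643384 and chr8:105937559-105937705. Catalytic codons ACC, ACA and ACT all encode threonine, and Psmb7 and Psmb10 use the same one.

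Partners resembled each other without being near-identical. Psmb8 and Psmb5 had the same base at 47 of the 60 positions printed, Psmb10 and Psmb7 at 43, and Psmb9 and Psmb6 at 41. Over the aligned coding sequences identity was 67.4% for Psmb8 and Psmb5, 66.2% for Psmb9 and Psmb6 and 63.3% for Psmb10 and Psmb7. The longest run of bases shared exactly by the transcripts of a pair was 18 bases, for Psmb8 and Psmb5. A read of 50 bases without errors could therefore not match both partners of a pair.

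The inducible subunits were low among the core genes. Per kilobase of merged exons the levels of Psmb9 and Psmb8 were below those of all 14 constitutive core genes, and that of Psmb10 was above Psmb5 alone. The place of Psmb5 depended on the length. Per kilobase of coding sequence Psmb9, at 131, Psmb8, at 217, and Psmb10, at 241, were all above Psmb5, at 115. They were below the other constitutive core genes on that length too. A level below is the mean normalized count divided by the length of the gene's merged exons in kilobases, unless another length is named. Psmb10, the inducible counterpart of the trypsin-like subunit, averaged 197 normalized counts, or 116 per kilobase. Psmb8, the counterpart of the chymotrypsin-like subunit, averaged 180 normalized counts, or 53.2 per kilobase. Psmb9, the counterpart of the caspase-like subunit, averaged 86.2 normalized counts, or 23.6 per kilobase. These levels straddle the median of protein-coding genes, 52.1 per kilobase, with Psmb9 below it.

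Of the constitutive catalytic subunits, Psmb6, the caspase-like subunit, was the highest per kilobase, at 437, with 818 normalized counts on average. Psmb7, the trypsin-like subunit, averaged 876 normalized counts, or 256 per kilobase. Psmb5, the chymotrypsin-like subunit, stood far below both, at 91.3 normalized counts, or 102 per kilobase. Psmb5 had the lowest level of the 14 constitutive core genes on merged exons and on principal transcripts.

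Within pairs, Psmb9 had 0.0539 times the level of Psmb6, Psmb10 had 0.452 times that of Psmb7, and Psmb8 had 0.523 times that of Psmb5. The order of the first 2 pairs held on every length tried. The ratio was 0.0353 to 0.114 for Psmb9 and Psmb6, and 0.142 to 0.489 for Psmb10 and Psmb7. For Psmb8 and Psmb5 it did not hold. Psmb8 was at 1.09 times Psmb5 per kilobase of principal transcript, the main protein-coding form of a gene in the annotation, and at 1.88 times Psmb5 per kilobase of coding sequence. The merged exons of Psmb8 cover 3381 bases and its principal transcript 1628, whereas both cover 899 bases for Psmb5. Which of these lengths the liver transcripts have was not measured. In these bulk samples fewer cells of a type and less RNA per cell cannot be told apart.

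**Figure D1:**
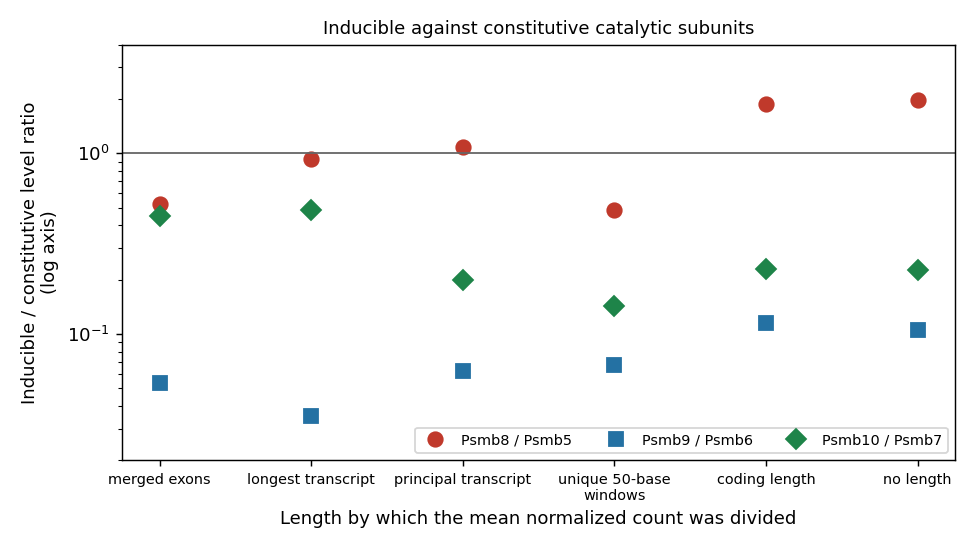
Ratio of the level of each inducible catalytic subunit to its constitutive counterpart (log axis) for each length by which the authors' mean normalized count was divided (horizontal axis); each point is 1 ratio of 2 genes, with no replicate error. Psmb9/Psmb6 and Psmb10/Psmb7 lie below the line at 1 on each length, while Psmb8/Psmb5 runs from 0.483 to 1.97 and crosses it.

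Psmb5 is also the catalytic gene whose reads are hardest to assign. Of the 850 windows of 50 bases in its principal transcript, 57.1% also occur in another annotated gene. Those genes are the processed pseudogenes Gm3375 and Psmb5-ps and the microRNA gene Mir686, which lies inside Psmb5. Gm3375, which was looked up after the Psmb5 value was seen, has a row of its own in the liver table, with a mean normalized count of 70.9 against 91.3 for Psmb5. The counting kept reads with a single place in the genome, and reads that fit a gene and its pseudogene equally well are not of that kind. Their part in the Psmb5 level was not tested. When the count of Psmb5 was set against its 365 unique windows its level rose to 250 per kilobase, and the ratio of Psmb8 to Psmb5 was then 0.483. On that scale Psma2, at 180, and Psma3, at 226, were the core genes below it.

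The remaining catalytic subunits share less. Psmb10 shares no window with another gene, and Psmb6 shares 2.67% with a pseudogene. The shared windows of Psmb7, 28.1% of its transcript, are where it overlaps Nek6. Psmb9 overlaps Tap1, which encodes a chain of the peptide transporter of MHC class I loading, over 12.5% of its windows, and Psmb8 overlaps the antisense gene Gm20496 over 5.83%. Windows were matched on both strands, since the strand setting of the counting is not given in the sources used here. In the RefSeq gene order of GRCm38.p6, Psmb9, Tap1, Psmb8 and Tap2 follow each other on chromosome 17, next to the MHC class II gene H2-DMb1. Tap1 had a level of 41.9 and Tap2 of 110 per kilobase, so the 4 neighbours lay between 23.6 and 110.

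**Figure D2:**
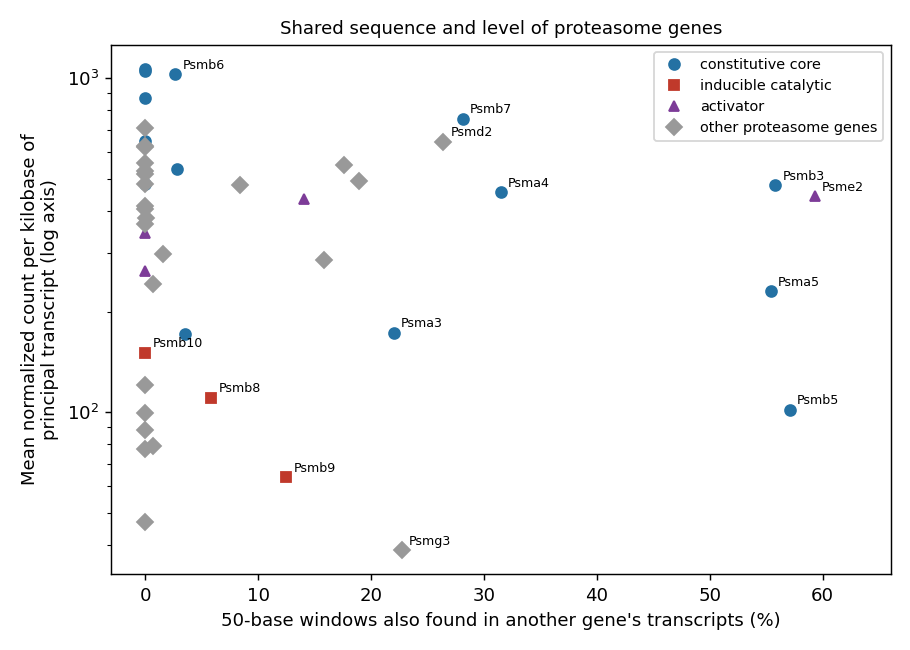
Level of each of 46 proteasome genes per kilobase of principal transcript (vertical log axis, authors' mean normalized count) against the share of its 50-base windows that also occur in transcripts of another gene (horizontal axis, %). Psmb5, Psme2, Psmb3 and Psma5 lie beyond 50%, and the inducible subunits Psmb8, Psmb9 and Psmb10 lie between 0 and 12.5%.

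The other core genes were abundant but far from equal, although 1 copy of each subunit enters each ring. All 7 alpha ring genes exceeded the protein-coding median, from Psma3 at 126 to Psma6 at 738 per kilobase, with a median of 223 at Psma4. The 4 noncatalytic beta genes ran from Psmb3 at 159 to Psmb4 at 636 per kilobase, with a median of 274. Against unique windows alone Psmb3 stood at 1156, above Psmb4 at 1094 and the highest of the 14 constitutive core genes. Over the 14 constitutive core genes the highest level, that of Psma6, was 7.26 times that of Psmb5. Per kilobase of principal transcript Psma7 was the highest alpha gene, at 1066, and the spread over the core was 10.5 times. Psmb5 was the low end of both spreads. Of the other constitutive core genes the lowest were Psma3, at 126 per kilobase of merged exons, and Psma2, at 171 per kilobase of principal transcript. Other genes in this group share windows with processed pseudogenes, as Psmb5 does. Genes that overlap them on the genome were left out of the shares given next. The largest shares of windows found in other genes were 55.8% for Psmb3, 54.5% for Psma5, 25.6% for Psma4 and 22% for Psma3. The part of shared reads in the spread was not tested.

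The regulatory particle genes were more alike. The 6 ATPases, which form the ring that unfolds substrates, ran from Psmc2 at 183 to Psmc1 at 451 per kilobase, with a median of 368. The 11 non-ATPase genes ran from Psmd14, the deubiquitinase that removes ubiquitin chains, at 163 to Psmd2, a scaffold that docks ubiquitin shuttle factors, at 472 per kilobase, with a median of 240 at Psmd3. Psmd4, a ubiquitin receptor, had a level of 296 per kilobase. All 17 genes exceeded the protein-coding median, and the highest was 2.90 times the lowest. On principal transcripts the ATPases ran from 380 for Psmc6 to 622 for Psmc3 and the spread over the regulatory particle was 2.49 times, from Psmd13 at 284 to Psmd8 at 708.

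Regulatory and core particle did not differ in a stable direction. The median of the 17 regulatory genes was 263 and that of the 14 constitutive core genes 240 per kilobase, a ratio of 1.10. Per kilobase of principal transcript the ratio was 0.966, and per kilobase of coding sequence 0.779.

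The activators, which open the core in place of the regulatory particle, lay close together on merged exons, from 219 to 266 per kilobase, and further apart on other lengths. They ran from 265 to 443 on principal transcripts, from 403 to 927 on coding length and from 270.2 to 1147 on unique windows. Psme1 and Psme2 encode the alpha and beta chains of the activator that interferon-gamma induces, and their levels were 219 and 242 per kilobase of merged exons and 434 and 443 per kilobase of principal transcript. They lie on either side of Emc9 on chromosome 14 in the RefSeq order. Psme2 shares 59.3% of its windows with the related gene Psme2b and a pseudogene, so its value is uncertain. Against unique windows alone Psme2 stood at 1147 and Psme1 at 529 per kilobase. Psme3, the nuclear activator, had a level of 240 and Psme4, a large activator of a single chain, of 266 per kilobase. On merged exons Psme1 and Psme2 thus stood above the inducible catalytic subunits, of which Psmb10 was the highest at 116. On that length they were also near the constitutive core median of 240. On principal transcripts both were below the core median of 508. Against unique windows Psme2 was above every constitutive core gene except Psmb3, at 1156. Psmf1, known as an inhibitor of the core in vitro, had a level of 45.8 per kilobase.

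On merged exons the assembly chaperones with a Psmg or Psmd symbol stood lower than every gene of the constitutive core and the regulatory particle. On principal transcripts this did not hold, since Psmd9, at 242 per kilobase, was above Psmb5, Psma2, Psma3 and Psma5. Psmg1, at 121 on that length, was above Psmb5 as well. The 4 core assembly chaperones, which help to build the alpha ring, ran from Psmg3 at 11.8 to Psmg4 at 99.1 per kilobase, with a median of 73.9. Psmg3 was the lowest of the 46 genes, and on principal transcripts it was again the lowest, at 38.6, with 22.7% of its windows shared with an overlapping gene. The 3 chaperones of the regulatory particle stood at 45.5 for Psmd10, 48.1 for Psmd5 and 86.7 for Psmd9 per kilobase. Across the 46 genes the median level was 221 per kilobase, 4.25 times the median of protein-coding genes, and 41 of them lay above it. The 5 below it were Psmb9, Psmf1, Psmd5, Psmd10 and Psmg3. The median of all protein-coding rows counts genes in the table only, whose lowest mean normalized count is 15.6. The genes matched by symbol only were at 23.5 for Psmc3ip and 49.1 for Psme3ip1.

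**Figure D3:**
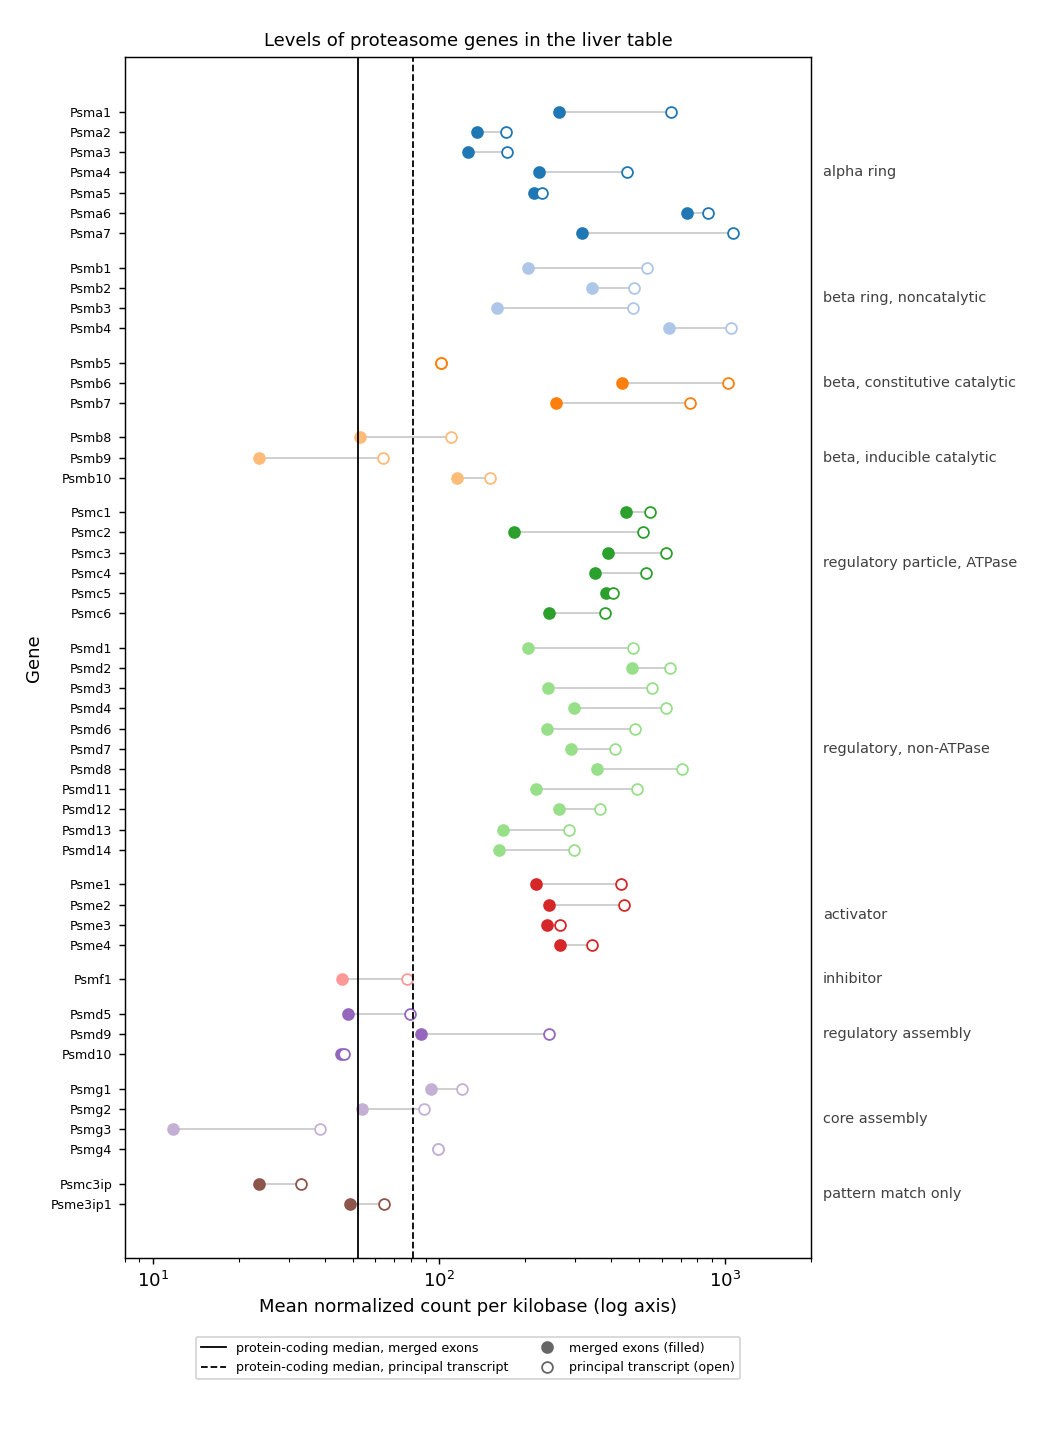
Level of each of the 48 matched genes (rows, by role) as the authors' mean normalized count per kilobase on a log axis; filled points use merged exons, open points the principal transcript, and the vertical lines mark the median of protein-coding genes on each scale. Constitutive core, regulatory particle and activator genes lie to the right of their lines, and Psmb9, Psmf1, Psmd5, Psmd10 and Psmg3 lie to the left on both scales.

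Genes that work with the proteasome were read from lists of known roles. All 4 genes for subunits and assembly factors with other symbols lay above the protein-coding median, from Sem1, a small regulatory subunit, at 90.9 to Ecpas, an adaptor that holds core and regulatory particle together, at 209 per kilobase. Pomp, the chaperone that matures the core, had a level of 134, above the Psmg chaperones and above Psmb5 and Psma3. Of 8 deubiquitinases and shuttle factors, 7 lay above that median, with Ubqln1, a shuttle factor, the highest at 487 per kilobase. Uchl5, a deubiquitinase of the regulatory particle, lay below it at 42.8 per kilobase. In these lists the largest shares of windows found in other genes were 78% for Adrm1 and 64.6% for Vcp. The part of shared reads in these levels was not tested.

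Another 6 genes, which act in proteasome transcription, induction or nuclear import, lay above the median on merged exons, and 5 of them on principal transcripts. Ddi2, the protease that releases the proteasome transcription factor Nfe2l1 from its precursor, was the highest of them at 533 per kilobase, and Nlrc5, the transactivator of MHC class I genes, the lowest at 61.4. Of 6 genes of peptide transport and loading, 5 lay above the median on merged exons and 4 on principal transcripts. Tap1 was the lowest, at 41.9, and B2m, the light chain of MHC class I, the highest, at 11200 per kilobase. On merged exons the levels of the inducible subunits, Tap1, Tap2 and Tapbpl were thus at or below 116 per kilobase. Tapbp and Erap1, from the same list, lay above every inducible subunit and within the range of the constitutive core genes. B2m was well above every proteasome gene. On principal transcripts Psmb10 and Tap2 exceeded 116, and Tapbp and Erap1 again lay above every inducible subunit.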

How the data were processed

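Total RNA depleted of ribosomal RNA was made into directional single-read libraries. The authors aligned reads with STAR 2.5.3a, whose gene counts keep uniquely mapped reads, and compared the livers with DESeq2. The genome build, annotation release, strand setting and row filter are not given in the sources used here. The deposited table gives per gene the authors' mean normalized count, a signal averaged over the compared libraries; depth and precision per library are unknown. Its other 5 value columns hold the authors' comparison (log2 fold change, its standard error, statistic, p-value, adjusted p-value) and were not used.

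Each mean was divided by the length of merged exons in GENCODE M21, matched by Ensembl identifier for 11754 of 11779 rows and all 48 genes. Principal transcripts were cut into windows of 50 bases, which were sought in all transcripts. The 50 bases are an assumed read length, and the paper's methods state a far shorter one. Coding sequences were aligned globally (Biopython 1.88). Lengths were tested on simulated data (200 of 200 genes recovered). Scripts ran under Python 3.11.15. Alternatives changed the length, the background and the members of the regulatory particle. Catalytic subunits were named in full, other groups mostly by their highest, lowest and median genes. Psmd4, Pomp and Tap2, among others, were named outside that rule. Genes and lists were chosen with earlier results of these data known. Protein sequences and values of single mice were not analysed here. Some genes of the lists are not reported here.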

Additional observations from a re-analysis of the deposited data

How the results depend on the processing

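Of the 36 values under alternatives, 7 reversed, 25 moved and 4, all counts of genes above the protein-coding median (37 to 42 against 41), stayed within 1.5 times. There is no replicate error, so every changed ratio counts as moved. Without division by length the ratios were 1.97 (Psmb8 to Psmb5), 0.105 (Psmb9 to Psmb6), 0.225 (Psmb10 to Psmb7), 1.30 (regulatory to core median), 13.6 (highest to lowest core gene) and 2.63 (proteasome to protein-coding median). Per longest transcript they were, in that order, 0.928, 0.0353, 0.489, 0.886, 10.3 and 4.84. Per coding length they were 1.88, 0.114, 0.228, 0.779, 13.6 and 3.83. Per principal transcript they were 1.09, 0.0622, 0.199, 0.966, 10.5 and 5.22. Per unique window the first 5 were 0.483, 0.0674, 0.142, 0.776 and 6.41. The lowest constitutive core gene was Psma2 per unique window and Psmb5 otherwise. The proteasome median was 3.30 times that of protein-coding genes with a mean of at least 50, and 4.30 times that of every listed gene. With Psmd5, Psmd9 and Psmd10 counted in, the regulatory to core ratio was 1.01. All 7 reversals fell under alternatives that changed the length alone, with the mean normalized counts kept as they were. Which length is right for the liver transcripts was not tested. The coding length from RefSeq proteins was not run and that of GENCODE took its place. This alternative, the principal transcript and the unique windows were added after seeing the data. No paired analysis was possible because the table has no values of single mice.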
